A study of Mus musculus with 17 samples.

Results

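The 4 libraries described here are those numbered replicate 3 in the pMSCV, SRF, SRF-ICA1L and SRF-RELA lines of C2C12 cells, out of 17 libraries in the series. They were set against the 8 libraries numbered 1 or 2 of the same 4 lines, with the line as a block, over all genes. C2C12 is an established mouse myoblast line whose cells can fuse into contractile fibres in culture. Per the labels, cells grew in DMEM with 10% fetal bovine serum and expressed the empty pMSCV construct, SRF (a transcription factor that answers serum and actin signals), or SRF joined to ICA1L or RELA. SRF-FOXO1 (3 libraries) and SRF-PDGFRB (2 libraries) lines complete the series and lie outside the contrast. The labels give the same medium for all of them. The labels do not say whether a line was a clone or a pool, nor whether a replicate number stands for a day, a passage, a dish or an extraction, so the spread between libraries may be technical in part.

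Immediate-early genes are the group on which the comparison turns. They encode transcription factors (FOS, JUN, EGR and NR4A proteins), phosphatases and RNA-binding proteins, and are switched on within a short time of a stimulus such as fresh serum, growth factors, stretch or disturbance of a culture. Their transcripts are short-lived, so that their level follows the recent history of a culture. SRF bound with ternary complex factors and CREB bound to cyclic AMP response elements are the classic activators of their promoters, and ERK signalling feeds into both.

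The contrast was itself chosen from these libraries. Across genes, the deviation of a library from the mean of its line was correlated between lines, and the 6 pairs of replicate 3 libraries gave values of 0.482 to 0.763. The 24 pairs of a replicate 3 library with a library of another number gave -0.585 to 0.114. Replicate 1 libraries also correlated with each other (0.488 to 0.695, 6 pairs), as did replicate 2 libraries (0.392 to 0.789, 6 pairs), and 1 with 2 gave -0.458 to -0.0847 over 12 pairs. Deviations within a line sum to 0, so values within and between numbers depend on each other and are not separate support. A shift in replicate 3 alone would give positive values within number 1, within number 2 and between 1 and 2. The values between 1 and 2 were negative, so replicates 1 and 2 also differed from each other in a way shared between lines. Same-numbered libraries therefore cannot be counted as independent cultures: the contrast sets 1 number against 2. The differences below are given as a description of these 12 libraries, and their calls carry no weight as evidence beyond them.

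Library depth was close. Total counts ran from 21672748 to 23543734 in the 4 replicate 3 libraries and from 20948439 to 22278138 in the other 8. All 10 C2C12 myoblast markers looked for were detected. Expression is given in CPM, counts scaled to library size with edgeR's TMM factors, and differences in log2 units with a standard error (SE) from edgeR.

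Libraries outside the contrast did not all follow their number. Fos stood at 5.14, 361 and 4.64 CPM in SRF-FOXO1 replicates 1, 2 and 3, and at 186 and 2.71 CPM in SRF-PDGFRB replicates 1 and 2. SRF-FOXO1 replicate 1 and SRF-PDGFRB replicate 2 were therefore low in Fos, like the 4 replicate 3 libraries, although they carry other numbers. Low Fos thus went with the number 3 in the 4 lines but not in every line of the series.

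Of 14937 genes tested, edgeR's quasi-likelihood test called 1852 between replicate 3 and the other libraries at an adjusted p under 0.05, which is 12.4% of the genes. Of these, 1033 (6.92%) were lower in replicate 3 and 819 (5.48%) higher. These shares are the background for the counts of list members called below. The median difference was -0.02 over all genes, -1.07 over those called lower and 0.72 over those called higher. A difference of at least 2-fold was reached by 544 of the lower and 254 of the higher genes, and one of at least 8-fold by 60 and 19. Counted without a model, replicate 3 lay below both other libraries of its line in all 4 lines for 1773 genes (11.9%). It lay above both in all 4 lines for 1822 genes (12.2%). Genes said below not to overlap between the groups all belong to these 1773 or 1822. Some of the named genes were picked from these sets, so a lack of overlap is no separate result about a gene.

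With replicate number as a block of 3 levels the number called was 4516 (2281 higher and 2235 lower). Leaving out 1 replicate 3 library left 750 (pMSCV), 652 (SRF), 601 (SRF-ICA1L) or 493 (SRF-RELA) genes called, and leaving out SRF replicate 1, SRF replicate 2 or SRF-ICA1L replicate 2 left 1161, 1192 and 1179. Of the 1852 genes, 419 were called whichever of the 12 libraries was left out.

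**Figure D1:**
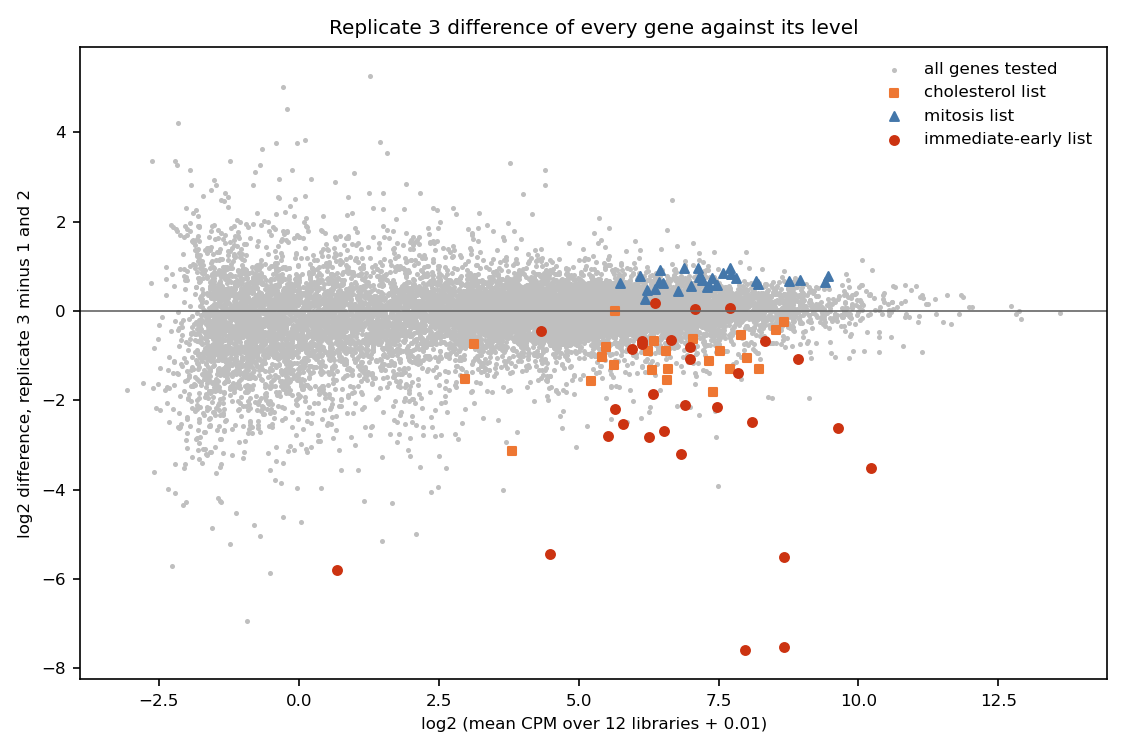
Log2 difference of replicate 3 from replicates 1 and 2 (vertical axis) against the log2 mean CPM over the 12 libraries (horizontal axis), 1 point per gene tested, with 3 gene lists in colour. Most of the 30 immediate-early genes lie below 0, down to -7.60 for Fos, and all 30 mitosis genes lie above it.

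The 60 genes called at least 8-fold lower came from several groups, and Il6 and Cxcl1, given further below, were among them. Of the 40 gene lists, the immediate-early list had the lowest median difference. Of 30 members of this list, 21 were called lower and none higher, 27 differences were below 0, and the median was -2.13 against -0.02 over all genes. In 23 of the 30, replicate 3 lay below both other libraries of its line in all 4 lines. Medians within the lines were -1.78 in pMSCV, -1.61 in SRF, -1.84 in SRF-ICA1L and -2.46 in SRF-RELA.

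Promoters of the genes called lower were searched for short motifs. Windows came from RefSeq (GRCm38.p6), and 19 of the 21 genes matched by symbol, all but Egr1 and Ier2. In the 250 bases before a start, the cyclic AMP response element half-site, TGACG on one strand or CGTCA on the other, was found for 15 of the 19 genes (78.9%), and for 19.8% of all 27025 genes in the table. Some genes have several windows, and per window the shares were 75.0% of 28 and 17.8% of 32851. The half-site was also found for 40.0% of 10 cholesterol genes called lower and for 15.4% of 26 mitosis genes. Immediate-early genes that were not called were not counted apart. The CArG box, the motif that SRF binds, was searched as CCWWWWWWGG, with W for A or T. It was found for 2 of the 19 (Zfp36 and Egr2, 10.5%) and for 1.62% of all genes. Bases further upstream and looser matches were not searched, and Egr1 had no window. A gene without a match here may therefore still hold an SRF site. A match is a description of the letters and not evidence that a factor was bound. The windows below hold the 150 bases before the start, 5′ to 3′ on the gene's strand, with half-sites in capitals. They were chosen for holding a half-site, from genes with a single start in the table whose window touches no annotated exon: Fos at chr12:85473740-85473889 (plus strand), Junb at chr8:84978749-84978898 (minus strand), Egr4 at chr6:85513590-85513739 (minus strand), Nr4a1 at chr15:101266696-101266845 (plus strand) and Nr4a2 at chr2:57124004-57124153 (minus strand).
Fos: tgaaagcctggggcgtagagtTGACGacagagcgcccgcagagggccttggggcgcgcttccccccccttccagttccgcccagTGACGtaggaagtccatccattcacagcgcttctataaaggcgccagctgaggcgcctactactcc
Junb: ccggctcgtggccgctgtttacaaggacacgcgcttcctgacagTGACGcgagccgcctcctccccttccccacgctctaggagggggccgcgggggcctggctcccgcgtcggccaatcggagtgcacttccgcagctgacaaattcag
Egr4: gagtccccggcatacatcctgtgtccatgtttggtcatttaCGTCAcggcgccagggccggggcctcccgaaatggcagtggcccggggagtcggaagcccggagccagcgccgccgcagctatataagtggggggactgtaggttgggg
Nr4a1: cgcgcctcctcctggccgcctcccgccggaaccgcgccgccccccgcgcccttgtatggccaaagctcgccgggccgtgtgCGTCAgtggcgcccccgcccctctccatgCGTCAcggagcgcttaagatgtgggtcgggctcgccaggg
Nr4a2: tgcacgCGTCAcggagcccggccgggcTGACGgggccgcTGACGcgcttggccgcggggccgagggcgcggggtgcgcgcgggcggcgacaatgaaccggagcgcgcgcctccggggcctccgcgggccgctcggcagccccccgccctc

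Fos, whose protein pairs with JUN to form AP-1, stood in replicate 3 at 1.43 CPM in pMSCV, 1.0 in SRF, 3.40 in SRF-ICA1L and 1.71 in SRF-RELA. Values of later genes follow this order of lines. In the other 8 libraries Fos ran from 158 to 596 CPM with a median of 344. The groups did not overlap, and the difference was -7.60 (SE 0.58). Fosb, a close relative of Fos, was at 3.47, 3.70, 2.90 and 2.13 CPM against 187 to 1314 CPM (median 455), a difference of -7.53 (SE 0.68). Its replicate 3 values also lay clear of all the others. Junb, another AP-1 partner, was at 133, 131, 204 and 232 CPM against 324 to 2428 CPM (median 933), a difference of -2.62 (SE 0.48) with no overlap.

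Other AP-1 genes differed less. Jund was called lower by a smaller difference of -0.74 (SE 0.21), and its ranges overlapped. Jun (-0.68, SE 0.22) and Fosl2 (-0.80) were not called, and Fosl1, at 0.08 (SE 0.20), lay close to 0. Atf3, a stress-induced factor of the same structural family, was at 11.8, 7.70, 6.02 and 8.28 CPM in replicate 3 against 22.0 to 180 CPM (median 48.9), a difference of -2.80 (SE 0.33). Maff, a small basic leucine zipper factor, was lower by a log2 difference of -0.86 (SE 0.21).

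Egr1, a zinc finger factor induced through SRF, stood at 83.7, 127, 212 and 175 CPM in the replicate 3 libraries in the same order of lines. The other 8 ran from 517 to 3130 CPM with a median of 1687, so the groups did not overlap, and the difference was -3.53 (SE 0.41). Unlike Fos, Egr1 remained well detected in replicate 3. Egr2 differed by -2.82 (SE 0.71), with SRF-ICA1L replicate 3 at 25.5 CPM inside the range of the others (13.0 to 239 CPM). Egr4 had 0, 0, 2 and 1 counts in the replicate 3 libraries. Replicates 1 and 2 had 55 and 92 counts in SRF-ICA1L and 80 and 169 in SRF-RELA, but only 3 and 1 in pMSCV and 4 and 6 in SRF, so its low level in replicate 3 could be read in SRF-ICA1L and SRF-RELA and not in pMSCV or SRF at this depth. Egr3 (-1.85, SE 0.67) was not called, nor was Nab2, which encodes a repressor of EGR proteins and differed by 0.19.

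The 3 orphan nuclear receptors of the NR4A family were called lower together. Nr4a1 was at 17.9, 11.6, 10.7 and 9.49 CPM against 113 to 1347 CPM (median 337), a difference of -5.52 (SE 0.89). Nr4a3 was at 0.462, 0.565, 0.951 and 0.787 CPM against 5.69 to 103 CPM (median 13.0), and Nr4a2 at 21.6, 18.1, 18.1 and 17.2 CPM against 59.8 to 274 CPM (median 104). None of the 3 overlapped between the groups. In Nr4a1, as in Egr2, Bhlhe40 and Ddit4, replicates 1 and 2 also stood apart from each other, with 113 to 252 CPM in the 4 replicate 1 libraries and 422 to 1347 CPM in the 4 replicate 2 libraries.

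Genes that end the response were lower as well. Zfp36, which encodes a protein that speeds decay of AU-rich transcripts, was at 16.3, 13.5, 15.6 and 19.02 CPM against 59.7 to 335 CPM (median 135), a difference of -3.19 (SE 0.37). Dusp1, a phosphatase acting on MAP kinases, was at 67.1, 64.5, 42.1 and 42.1 CPM against 161 to 320 CPM (median 228), a difference of -2.15 (SE 0.19). Ier3 was at 33.5 to 39.9 CPM against 114 to 211 CPM, and Ier2 at 53.2 to 78.1 CPM against 142 to 630 CPM. The Krüppel-like factors Klf4 (-1.39), Klf6 (-1.08) and Klf2 (-0.68) were called lower by smaller differences, while Myc, which drives growth genes, stood at 0.04 (SE 0.21) and was not called.

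Of the 21 genes, 14 were called whichever of the 12 libraries was left out, among them Fos, Fosb, Egr1, Nr4a1, Nr4a2, Zfp36 and Dusp1. Junb, Jund, Egr2, Klf2, Nr4a3, Btg2 and Maff lost their call without at least 1 library, and no gene of the 21 changed sign. Junb lost it only without SRF-RELA replicate 3, and Nr4a3 without replicate 3 of pMSCV, SRF-ICA1L or SRF-RELA. Against replicate 1 alone the list's median was -1.34, and against replicate 2 alone -2.33. Both use the same 4 replicate 3 libraries.

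**Figure D2:**
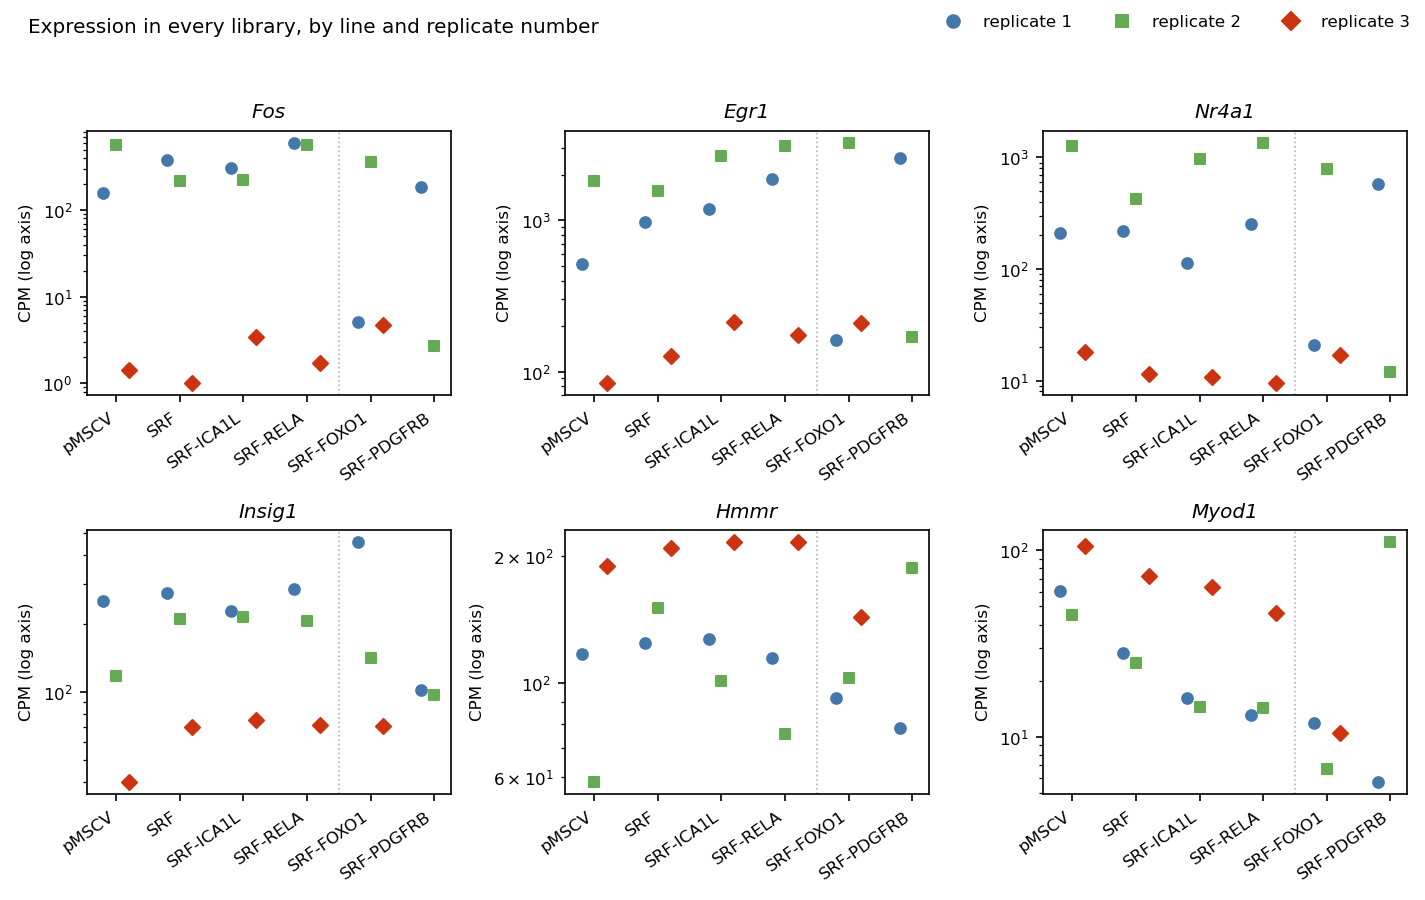
CPM (log axis) of 6 genes in each of the 17 libraries, grouped by line, with 1 marker shape and colour per replicate number; the dotted line separates the 4 lines of the contrast from SRF-FOXO1 and SRF-PDGFRB. Fos, Egr1 and Nr4a1 are low in the 4 replicate 3 libraries, and also in SRF-FOXO1 replicates 1 and 3 and in SRF-PDGFRB replicate 2.

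**Figure D3:**
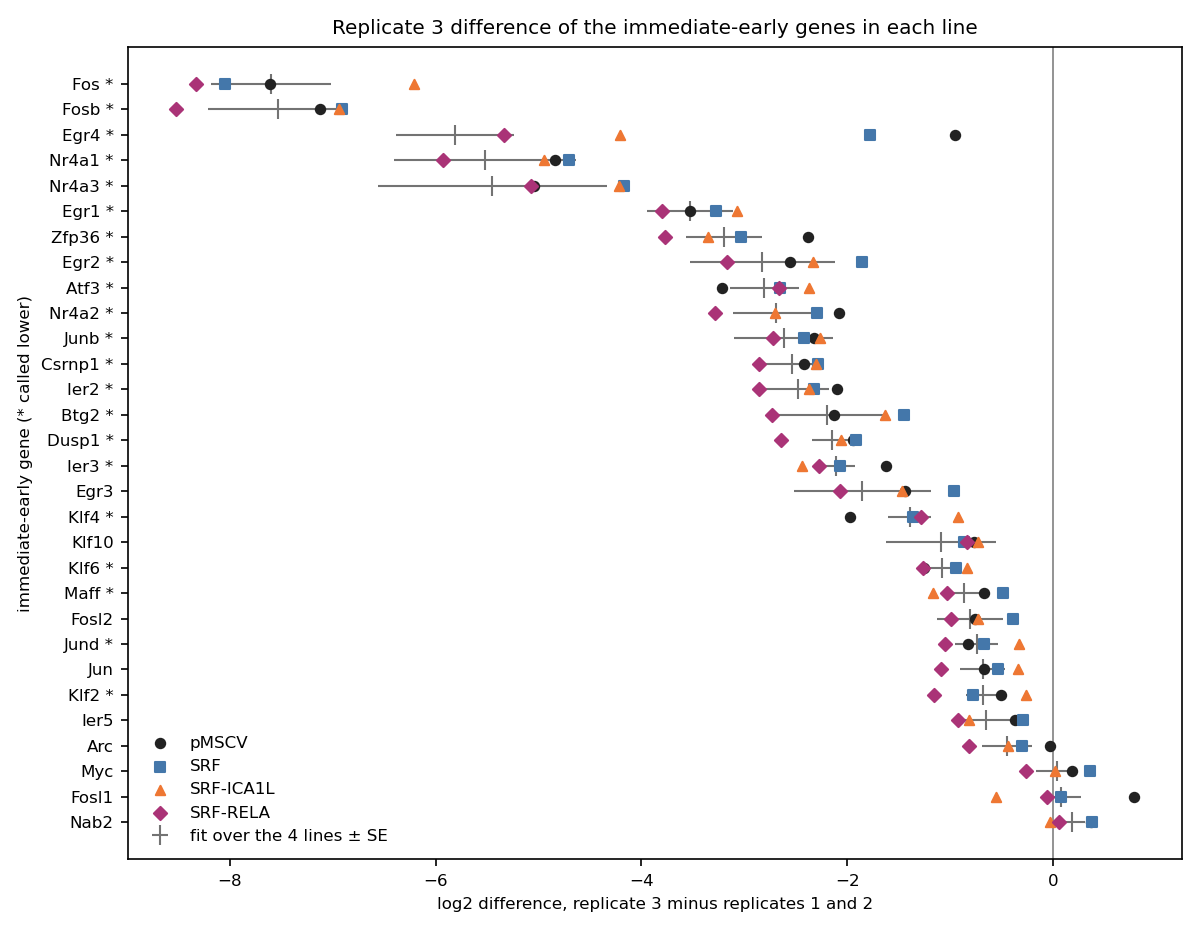
Log2 difference of replicate 3 from replicates 1 and 2 for each of the 30 immediate-early genes, with 1 point per line from log2 CPM (prior count of 2) and a bar for the fit over the 4 lines with its SE. Points of weakly expressed genes such as Egr4 are drawn towards 0 by the prior count, and the points of Fos run from -8.33 in SRF-RELA to -6.21 in SRF-ICA1L.

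Genes that restrain ERK signalling showed a smaller difference. Of 14 such genes, 3 were called lower and none higher, with a median of -0.43. Dusp2, a nuclear MAP kinase phosphatase, was at 5.08, 7.43, 5.30 and 3.79 CPM against 11.2 to 69.7 CPM (median 28.4), a difference of -2.63 (SE 0.49) with no overlap. Dusp6, the cytoplasmic ERK phosphatase, was called at -0.46 (SE 0.12) with overlapping ranges, and Spred3 at -0.63 (SE 0.14). Dusp2 lost its call without replicate 3 of SRF-ICA1L or of SRF-RELA, and the other calls also without replicate 3 of pMSCV. That of Dusp6 was lost as well without SRF replicate 1, 2 or 3, or without SRF-RELA replicate 2. Spry1 (-1.10), Spry2 (-0.49), Spry4 (-0.72) and Etv4 (0.75) were not called.

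The other class of SRF targets, genes of the actin cytoskeleton, did not show the low values of the immediate-early genes. Of 30 members, none was called lower and 1 higher, and the median was 0.15. The 1 called gene was Mrtfa, which encodes an actin-sensing cofactor of SRF, at 105 to 128 CPM in replicate 3 and 68.5 to 96.3 CPM in the others (0.50, SE 0.11), a call lost without any 1 of the 4 replicate 3 libraries. Actb differed by 0.35, Vcl by 0.20, Acta2 by 0.57 and Srf itself by -0.44 (SE 0.26), none of them called. Srf is the gene the constructs carry, and among the replicate 3 libraries it was at 1030 CPM in SRF against 82.5, 120 and 84.3 CPM in pMSCV, SRF-ICA1L and SRF-RELA. Among 15 targets of YAP and TEAD, Ccn1 (-1.06) and F3 (-2.24) were called lower and Nuak2 (1.80) higher, with a median of 0.04. Over all genes, 6.92% were called lower and 5.48% higher. The calls of Ccn1 and F3 were lost without replicate 3 of pMSCV, SRF-ICA1L or SRF-RELA. That of Ccn1 was lost as well without SRF replicate 1 or 3, or without replicate 2 of SRF-ICA1L or SRF-RELA.

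Genes that answer cyclic AMP or glucocorticoids were low beside the immediate-early genes. Of 17 members, 9 were called lower and 1, Pdk4, higher, with a median of -1.38. Several called genes are counted in other lists too. Dusp1 is also in the immediate-early list, Mt1 and Mt2 in the metal list, and Pdk4 in the FOXO list. Ppargc1a, a coactivator of mitochondrial genes, was at 2.40, 0.652, 0.498 and 1.16 CPM against 4.32 to 17.1 CPM (median 6.50), a difference of -2.79 (SE 0.45). Sgk1, a kinase induced by serum and glucocorticoids, was at 170, 228, 184 and 179 CPM against 452 to 1010 CPM (median 733), a difference of -1.95 (SE 0.22). Neither gene overlapped between groups. Crem (-0.74), Sik1 (-1.77), Pde4b (-0.93) and Klf9 (-1.70) were also called lower, and Crem, Pde4b and Klf9 lost their call without at least 1 library. Against replicate 1 alone the list's median was -0.66. Fkbp5 (0.56) and Tsc22d3 (0.02), well-known glucocorticoid targets, were not called.

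Inflammatory mediators divided. Of 25 targets of NF-kappaB, 6 were called lower and 1 higher, with a median of -0.47, and 5 of the 7 calls, not those of Nfkbia and Cxcl10, held with any 1 library left out. Medians within the lines were 0.046 in pMSCV, -0.13 in SRF, -0.52 in SRF-ICA1L and -0.45 in SRF-RELA. Cxcl1, a neutrophil-attracting chemokine, was at 9.01, 10.9, 19.8 and 33.1 CPM against 75.4 to 599 CPM (median 210), a difference of -3.91 (SE 0.56) with no overlap. Nfkbia, the inhibitor that NF-kappaB itself induces, differed by -2.12, Ptgs2 by -1.93 and Il6, which was weakly expressed, by -5.16 (SE 0.90). The subunit genes Nfkb1 (-0.11), Nfkb2 (0.07) and Relb (-0.50) were not called, and Cd40, a receptor of the TNF family, was called higher at 2.12 (SE 0.26) from a low level. Of 30 interferon-response genes, 3 were called lower, beside 6.92% of all genes. Of the 30 differences, 29 were below 0, with a median of -0.74, and of -0.25 against replicate 1 alone. In 7 of the 30, replicate 3 lay below both other libraries of its line in all 4 lines, beside 11.9% of all genes. The 3 calls, Ifit3, Ifih1 and Parp9, were each lost without any 1 of the 4 replicate 3 libraries, and also without either other SRF library.

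Sterol synthesis was the second large group on the low side. SREBP2, a factor that becomes active when cholesterol falls, drives most of these genes. Of 24 members, 12 were called lower and none higher, 23 differences were below 0 and the median was -1.03. Medians within the lines were -0.79 in pMSCV, -1.12 in SRF, -0.98 in SRF-ICA1L and -1.14 in SRF-RELA. Insig1, which holds the SREBP complex in the endoplasmic reticulum, was at 40.0, 70.3, 75.3 and 71.8 CPM against 118 to 285 CPM (median 220), a difference of -1.82 (SE 0.22). The groups did not overlap.

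The enzymes of the pathway were lower along its length. Hmgcs1, at its entry, differed by -1.31 (SE 0.36), Mvd by -1.57, Idi1 by -1.32, Fdft1 by -1.12, Lss by -1.55, Cyp51 by -1.04, Msmo1 by -1.29 and Nsdhl by -1.30, all called. Sqle (-0.43), which makes squalene epoxide, was not called. Srebf2 itself differed by -0.25.

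The cholesterol result rested in part on which library it was set against. The level of the list, the mean log2 CPM of its members relative to the mean of the 8 other libraries, was -1.29, -0.91, -0.89 and -0.92 in the replicate 3 libraries, in the same order of lines. It was -1.25 in pMSCV replicate 2 and between -0.29 and 0.62 in the other 7. pMSCV replicate 2 was thus as low as replicate 3, and Lss, at 32.2 CPM there and 33.5 CPM in pMSCV replicate 3, is an example. Against replicate 1 alone the median was -1.31 and against replicate 2 alone -0.65. Of the 12 calls, 3 held whichever of the 12 libraries was left out, Pmvk and Insig1 among them, and the other 9 were lost without at least 1 (Mvd and Lss without any 1 of the 4 replicate 3 libraries).

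The Hmgcs1 promoter holds a core letter string of sterol response elements, CACNCCAC (GTGGNGTG on the opposite strand). Of the 12 genes called lower, 10 matched a RefSeq window, and 2 of the 10 (Hmgcs1 and Insig1, 20%) held the string in the 250 bases before a start, against 6.05% of all genes. The window of Hmgcs1, at chr13:119690201-119690350 (plus strand) in GRCm38.p6, is given as 150 bases with the string in capitals.
Hmgcs1: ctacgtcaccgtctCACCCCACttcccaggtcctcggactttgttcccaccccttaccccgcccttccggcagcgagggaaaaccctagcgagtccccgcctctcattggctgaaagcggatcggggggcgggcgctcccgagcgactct

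Fatty acid synthesis genes followed more weakly. Of 12 members, 5 were called lower (Acss2, Scd2, Fads1, Scd1 and Elovl5), all 12 differences were below 0 and the median was -0.54. Acss2 and Fads1 were called whichever of the 12 libraries was left out, and Scd1, Scd2 and Elovl5 were not. Acss2, which makes acetyl-CoA from acetate, was at 4.21, 5.52, 6.39 and 7.36 CPM against 7.80 to 19.4 CPM (median 13.8), a difference of -1.27 (SE 0.22) with no overlap. Fads1, a fatty acid desaturase, was at 116, 134, 125 and 127 CPM against 174 to 230 CPM (median 210). Fasn (-0.09), Acaca (-0.02) and Srebf1 (-0.03) lay near 0 and were not called.

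**Figure D4:**
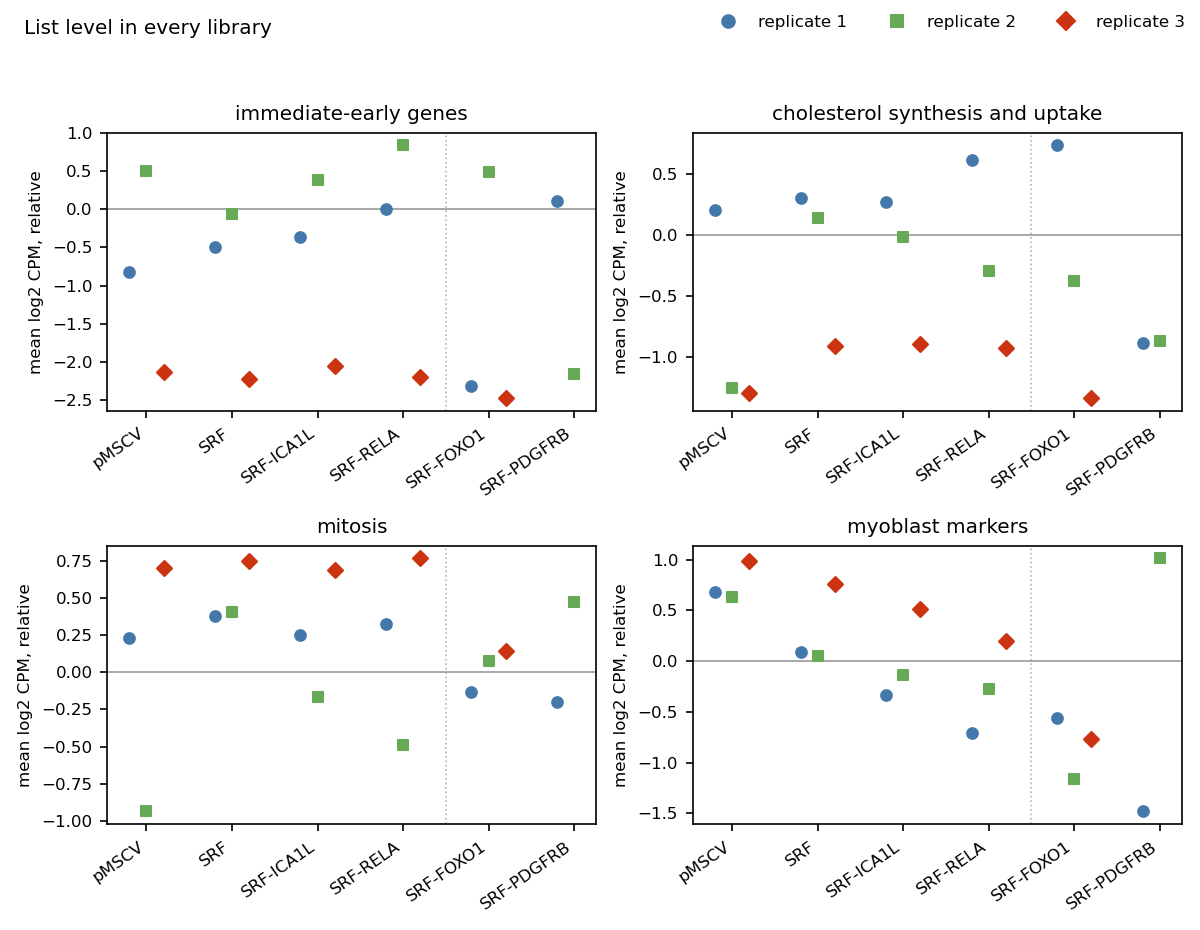
Mean log2 CPM of 4 gene lists in each of the 17 libraries, relative to the mean of the 8 replicate 1 and 2 libraries of the 4 lines left of the dotted line; marker shape and colour give the replicate number. Replicate 3 lies between -2.22 and -2.06 for the immediate-early list and between 0.69 and 0.77 for the mitosis list, clear of the other 8 in both.

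Genes of nutrient and stress responses were lower in smaller shares. Of 27 ATF4 targets, 10 were called lower and none higher, with a median of -0.66, and 6 of the 10 calls held whichever of the 12 libraries was left out. Ppp1r15a, which restores protein synthesis after stress, was at 51.5, 43.3, 30.7 and 31.1 CPM against 163 to 235 CPM (median 194), a difference of -2.33 (SE 0.16). Trib3, a pseudokinase that restrains ATF4, was at 11.2, 11.2, 11.6 and 11.8 CPM against 17.1 to 41.3 CPM (median 30.0), with no overlap in either gene. The amino acid enzymes Asns (-0.50), Psat1 (-0.27) and Phgdh (-0.17) were not called.

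Endoplasmic reticulum chaperones showed the same direction. Of 21 genes of the unfolded-protein response, 7 were called lower and none higher, with a median of -0.24. Of these, Hspa5 and Herpud1 were called whichever of the 12 libraries was left out, and Calr, Dnajb9, Manf, Edem1 and Syvn1 were not. Hspa5, the main chaperone of that compartment, was at 597, 638, 766 and 758 CPM against 958 to 1713 CPM (median 1325), a difference of -0.90 (SE 0.11), and Herpud1, a component of its degradation machinery, differed by -1.31 (SE 0.14). Neither overlapped between the groups. Hsp90b1 (-0.14), Pdia4 (0.04) and Creld2 (0.32) were not called.

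Among 39 genes of glycolysis and the hypoxia response, 11 were called lower and 1, Aldoc (1.42), higher, with a median of -0.34. Of the 12 calls, 7 held whichever of the 12 libraries was left out. Ddit4, an inhibitor of mTOR signalling, was at 16.7, 16.4, 23.1 and 26.3 CPM against 36.7 to 126 CPM (median 82.8), a difference of -2.02 (SE 0.34). Ndrg1, a stress-induced gene, was at 88.2, 115, 110 and 106 CPM against 209 to 413 CPM (median 319), and Bnip3, a mitophagy receptor, at 9.20, 11.1, 15.8 and 14.8 CPM against 22.2 to 61.2 CPM (median 38.2). None of the 3 overlapped. Among glycolytic enzymes, Eno2 was at 7.39, 7.30, 14.9 and 12.5 CPM against 21.3 to 48.2 CPM (median 34.8), a difference of -1.81 (SE 0.24) with no overlap. Hk2 (-0.78) and Pfkp (-0.52) were called as well, though not with every library left out, and Gapdh (-0.25), Pgk1 (-0.16), Eno1 (-0.07) and Ldha (-0.13) were not called.

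Metal and oxidant response genes included clear differences. Of 15 members, 5 were called lower and none higher, with a median of -0.42, and 4 of the 5 calls held in the same way. Hmox1, which degrades haem, was at 25.2, 29.5, 42.5 and 42.0 CPM against 62.0 to 353 CPM (median 166), a difference of -2.16 (SE 0.22), and Mt1, a metallothionein, was at 93.8, 90.0, 137 and 153 CPM against 225 to 709 CPM (median 442), a difference of -1.96 (SE 0.17). Neither overlapped between the groups.

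The circadian list held 23 genes, of which 5 were called lower and none higher, with a median of -0.39, and 3 of the 5 calls held with any 1 library left out. Nfil3, a repressor of the clock's output genes, was at 11.9, 8.74, 13.0 and 14.5 CPM against 36.3 to 124 CPM (median 46.9), a difference of -2.42 (SE 0.37), and Bhlhe40, another repressor, at 57.7 to 65.7 CPM against 109 to 259 CPM. Of the core genes, Per1 (-1.76) and Per2 (-1.53) had large differences that were not called, and Clock (0.15) and Cry1 (-0.17) lay near 0.

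Insulin signalling genes went both ways. Irs2, an adaptor of the insulin and IGF receptors, was at 16.8, 17.9, 16.1 and 20.6 CPM against 54.8 to 175 CPM (median 83.6), a difference of -2.39 (SE 0.32). Irs1, the related adaptor, was instead higher at 163, 151, 144 and 136 CPM against 59.1 to 119 CPM (median 94.7), a difference of 0.66 (SE 0.16). Neither overlapped between groups, and the call of Irs1 was lost without any 1 replicate 3 library, SRF replicate 2 or SRF-ICA1L replicate 2. Of 21 FOXO and starvation targets, 7 were called lower and 1 higher, with a median of -0.44, and 4 of the 8 calls held with any 1 library left out. Those 4 include Irs2, Bnip3, which is also in the hypoxia list, and Pdk4, which is also in the glucocorticoid list. The 1 higher gene was Pdk4, a kinase that holds back pyruvate oxidation, at 66.5, 103, 95.6 and 95.0 CPM against 7.06 to 36.6 CPM (median 23.2), a difference of 1.87 (SE 0.30).

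Single genes of signalling pathways were also called lower. Hes1, a repressor that Notch induces, was at 37.2, 35.7, 34.5 and 27.9 CPM against 146 to 453 CPM (median 226), a difference of -2.83 (SE 0.29). The Notch list as a whole had 1 gene called lower and 1 higher of 14, near the 6.92% and 5.48% of all genes, with a median of -0.04. Id1, a BMP target that blocks myogenic factors, was at 72.5, 76.5, 73.0 and 77.9 CPM against 106 to 333 CPM (median 189), a difference of -1.35 (SE 0.31). Neither overlapped, and the call of Id1 was lost without any 1 of the 4 replicate 3 libraries.

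On the high side, genes of mitosis were the clearest group. All 30 members had differences above 0, 10 were called higher and none lower, and the median was 0.67. In 28 of the 30, replicate 3 lay above both other libraries of its line in all 4 lines. Medians within the lines were 1.06 in pMSCV, 0.38 in SRF, 0.62 in SRF-ICA1L and 0.87 in SRF-RELA. Hmmr, a spindle-associated protein, was at 189, 208, 215 and 215 CPM against 58.2 to 150 CPM (median 116), a difference of 0.96 (SE 0.19). Cenpf, a kinetochore protein, was at 278, 292, 328 and 335 CPM against 69.8 to 209 CPM (median 171), a difference of 0.97 (SE 0.22). Prc1, which bundles the microtubules of the central spindle, was at 262, 281, 263 and 274 CPM against 74.9 to 205 CPM (median 169).

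Replicate 3 values of these genes were close to each other and lay above all 8 others. The list's level was 0.70, 0.75, 0.69 and 0.77 in replicate 3, and ran from -0.94 in pMSCV replicate 2 to 0.40 in SRF replicate 2. Cdk1 (0.75), Top2a (0.78), Aurkb (0.79) and Ube2c (0.75) were called. Plk1 (0.96) and Aurka (0.92), mitotic kinases, had as large a difference and were not. None of the 10 calls held in every one of the 12 fits with 1 library left out, and in none of these fits did a sign change. Hmmr and Cenpf lost theirs without replicate 3 of pMSCV, SRF-ICA1L or SRF-RELA. The median was 0.41 against replicate 1 alone and 1.05 against replicate 2 alone.

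Genes of DNA replication, which act in the phase before, were less separated. None of 30 was called by edgeR, 27 differences were above 0, and the median was 0.32. It was 0.014 against replicate 1 alone and 0.70 against replicate 2 alone. Pcna stood at -0.17, Mcm2 at 0.33 and Cdc6 at 0.70. Of 30 genes of nucleolar ribosome biogenesis, Bop1 (0.77) and Tsr1 (0.90) were called higher, near the 5.48% of all genes. All 30 differences were above 0, with a median of 0.47, and of 0.076 against replicate 1 alone. Both calls were lost without any 1 of the 4 replicate 3 libraries. Ribosomal protein genes had a median of -0.05 over 74 members, with none called by edgeR, and of -0.19 against replicate 1 alone.

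Myod1 and Cdh15 were highest in replicate 3 within each line, on levels that also differed between lines. Myod1, the factor that commits cells to muscle, was at 106, 72.8, 63.7 and 46.2 CPM in the 4 replicate 3 libraries, pMSCV first and SRF-RELA last. The other 8 ran from 13.1 to 60.8 CPM with a median of 20.4. Replicate 3 was the highest library within each line, but the ranges overlapped because pMSCV replicate 1 lay above SRF-RELA replicate 3. The difference was 1.59 (SE 0.15). Cdh15, the cadherin of myoblasts, behaved in the same way at 387, 275, 215 and 124 CPM against 54.9 to 345 CPM (median 116), a difference of 0.95 (SE 0.16). Ncam1, an adhesion protein of fusing myoblasts, was at 110, 92.7, 106 and 90.0 CPM against 47.2 to 87.0 CPM (median 54.8), with no overlap.

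Of 10 myoblast markers, these 3 were called higher and none lower, with a median of 0.65. They kept their calls whichever of the 12 libraries was left out. Myf5 (0.62), Des (0.68) and Met (0.92) were not called. Of 40 differentiation genes, 3 were called higher (Tnnt2 at 1.52, Cacng1 at 1.15 and Chrna1 at 0.91), near the 5.48% called higher over all genes. Each of these calls was lost without replicate 3 of SRF or of SRF-ICA1L, and the list's median was 0.29. The median within the lines was -0.64 in SRF-RELA and 0.15, 0.82 and 0.86 in pMSCV, SRF and SRF-ICA1L. Myog, the factor of early differentiation, differed by 1.21 and was not called.

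Matrix genes on the high side were few. Of 39 collagen and matrix genes, 4 were called higher and none lower, with a median of 0.16, and only the call of Col18a1 held with any 1 library left out. Col18a1, a basement membrane collagen, was at 221, 220, 251 and 196 CPM against 46.5 to 203 CPM (median 71.8), a difference of 1.52 (SE 0.25), with SRF-RELA replicate 3 inside the range of the others. Nid1, which links laminin to collagen, was at 1594, 2037, 1433 and 1516 CPM against 369 to 1262 CPM (median 686), a difference of 1.13 (SE 0.24), a call lost without replicate 3 of pMSCV, SRF or SRF-RELA.

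The largest differences on the high side came from genes of no single pathway. Serpinb2, a protease inhibitor, was at 48.4, 71.7, 35.2 and 35.4 CPM against 1.5 to 33.2 CPM (median 4.07), a difference of 3.15 (SE 0.65) whose call was lost without replicate 3 of pMSCV, SRF or SRF-RELA. Kcnf1, which encodes a potassium channel subunit, was at 30.8, 47.7, 31.8 and 33.1 CPM against 3.35 to 11.6 CPM (median 5.49), a difference of 2.61 (SE 0.19). Slc9a2, a sodium-proton exchanger, was at 25.9, 15.3, 17.7 and 18.5 CPM against 2.16 to 7.89 CPM (median 4.25), a difference of 2.19 (SE 0.24). All 3 lay clear of the other libraries. Vegfc (2.65), a lymphatic growth factor, Svep1 (2.64), an extracellular matrix protein, Hdc (3.09), which makes histamine, and Lamb3 (2.31), a laminin chain, were higher from lower levels.

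**Figure D5:**
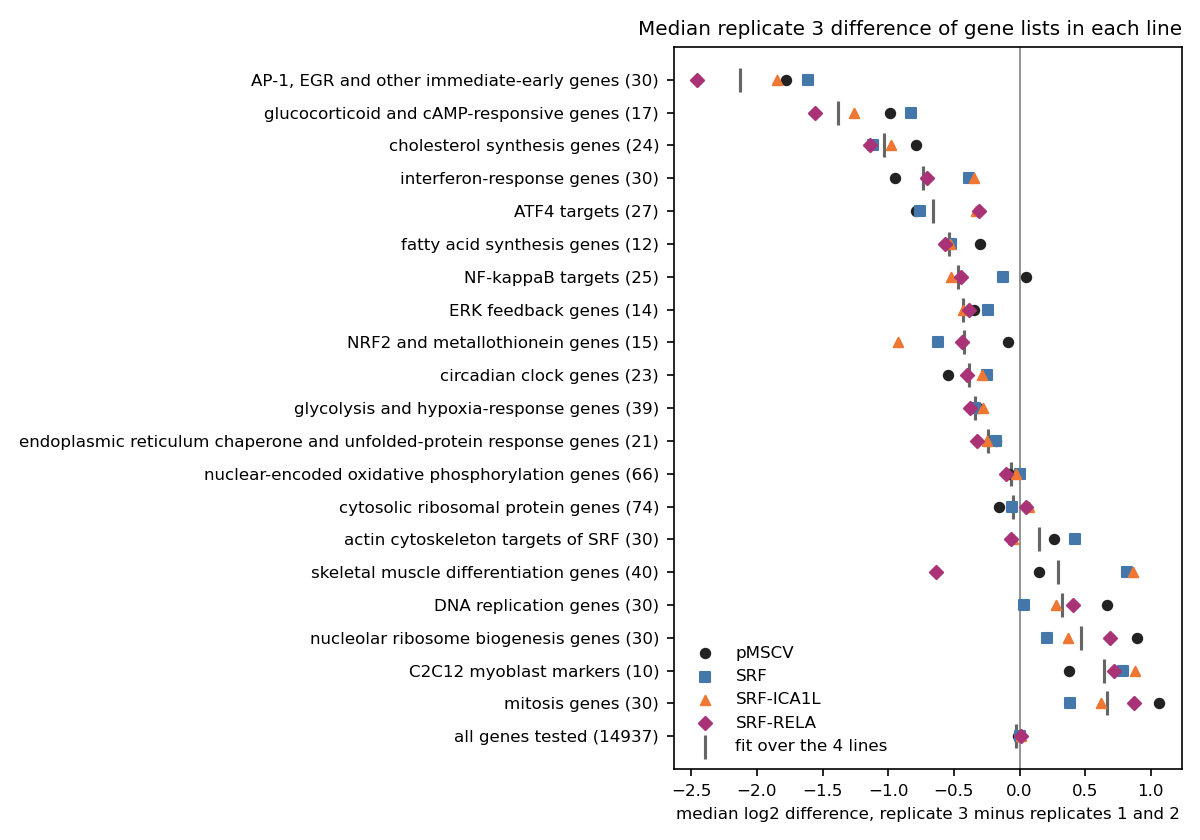
Median log2 difference of replicate 3 from replicates 1 and 2 for 20 gene lists and for all genes tested, with 1 point per line from log2 CPM and a bar for the fit over the 4 lines; the number of genes tested is in brackets. The immediate-early list lies lowest with medians of -2.46 to -1.61 in the lines, the mitosis list lies between 0.38 and 1.06, and the differentiation list spreads from -0.64 to 0.86.

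Some sums of marker genes also differed by replicate number: those of mitochondrial, macrophage and epithelial genes did not overlap between replicate 3 and the others, and those of adipocyte, endothelial, bone and cartilage, and neural genes did. The summed level of the mitochondrial ribosomal RNAs mt-Rnr1 and mt-Rnr2, the 2 analysed here of 15 mitochondrial genes looked for, was 679 to 743 CPM in replicate 3 and 916 to 1722 CPM in the other 8, and both were called lower (mt-Rnr1 only while no replicate 3 library, nor SRF replicate 1, was left out). Of 12 macrophage markers 4 were analysed, not Ptprc or Adgre1, with sums of 15.4 to 17.6 CPM against 20.02 to 32.1 CPM. For adipocytes it was 6 of 10, without Adipoq, with 83.5 to 115 CPM against 90.2 to 372.5 CPM. For epithelium it was 3 of 10, without Epcam or Cdh1, with 68.7 to 76.4 CPM against 9.31 to 51.5 CPM, of which Krt14 (2.83) and Krt19 (1.60) were called higher. For endothelium it was 4 of 10, without Pecam1, with 8.38 to 11.98 CPM against 1.67 to 10.3 CPM. For bone and cartilage it was 6 of 12, without Sp7 or Acan, with 194 to 215.5 CPM against 208 to 424 CPM, and for neural cells 4 of 10, without Sox10, with 80.1 to 165 CPM against 28.0 to 246 CPM. On the mean log2 level used for the gene lists, the adipocyte markers instead lay clear (-1.20 to -1.09 against -0.56 to 0.75). The macrophage markers overlapped on that level (-1.04 to -0.55 against -0.85 to 0.67). Of the 6 adipocyte markers analysed, 3 were called lower, with a median of -1.45. Only the call of Plin4 held with any 1 library left out. The part of these measures in the differences above was not tested.

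Whether the difference depended on the line was tested with an F test over the 3 terms by which SRF, SRF-ICA1L and SRF-RELA depart from pMSCV. The contrast was chosen because the lines agreed, which favours a low count here. edgeR called none of 15043 genes (0%), with 80 at an unadjusted p under 0.05, and DESeq2's likelihood ratio test called 2, Actc1 and Ccn3, named after their values were seen. Actc1, the cardiac actin of early muscle, differed by 0.11 in pMSCV, 1.78 in SRF, -0.52 in SRF-ICA1L and -5.15 in SRF-RELA. Ccn3, a matricellular protein, differed by -4.24, -0.63, 2.77 and 4.66 in the same order. With no dependence on the line, a share of about 0.05 of genes would have an unadjusted p under 0.05. The 80 found by edgeR are far fewer, so its test was conservative and could call little. Each line has 1 replicate 3 library, and a lack of calls does not show that the lines acted alike.

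SRF-FOXO1 supplied a replicate 3 library that the contrast had not used. In a fit of 15 libraries with a term of its own, edgeR called 1 of 15062 genes (0.00664%) between its replicate 3 and its replicates 1 and 2, with 1509 at an unadjusted p under 0.05, and DESeq2 called 202. The single replicate 3 library was assumed to vary like the other libraries of the fit, so these counts and the p-value below rest on a spread borrowed in large part from other lines. The 1 gene was Chrdl1, an inhibitor of BMPs, named after its value was seen, at 0.305, 0.188 and 68.9 CPM in SRF-FOXO1 replicates 1, 2 and 3 (8.09, SE 0.82, adjusted p = 0.0116 in edgeR). In the 4 lines Chrdl1 was at 0.693, 1.78, 8.15 and 16.8 CPM in replicate 3 and at most 0.544 CPM in the other 8 libraries, a difference of 5.27 (SE 0.50). Without SRF-FOXO1 replicate 1, which leaves 1 library against 1 and a spread taken from the other lines alone, 3 genes were called, all lower (Ppp1r15a at -3.52, Plk3 at -2.62 and 2210016F16Rik at -10.03), and without replicate 2 none, with 885 at an unadjusted p under 0.05. A block of 3 levels for the number in the 4 lines gave 111 calls.

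Directions in SRF-FOXO1 leaned the same way. Of the 1033 genes called lower in the 4 lines, 853 were below 0 in SRF-FOXO1, with a median of -0.54, and of the 819 called higher 651 were above 0, with a median of 0.33. Over all 15062 genes, 7869 were below 0, with a median of -0.02. The test of its difference minus that of the other lines called none of 15062 genes in edgeR (0%), with 1128 at an unadjusted p under 0.05, and 65 in DESeq2. The immediate-early median was -2.07 in SRF-FOXO1, but it depended on replicate 2: it was -2.92 without replicate 1 and -0.02 without replicate 2. The cholesterol median was -1.50, and it was -0.91 without replicate 1 and -1.95 without replicate 2. Low sterol genes therefore went with replicate 3 against either library, and low immediate-early genes against replicate 2. Insig1 was at 458, 140 and 70.9 CPM in SRF-FOXO1 replicates 1, 2 and 3. Mitosis genes (0.17) and myoblast markers (-0.01) had medians near 0 in SRF-FOXO1.

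In SRF-PDGFRB, replicate 2 stood to replicate 1 much as replicate 3 stood to the others, with 1 library each and so no test. Replicate 2 minus replicate 1 was below 0 for 936 of the 1033 lower genes (90.6%), against 49.8% of all genes, and above 0 for 770 of the 819 higher genes (94.0%), against 50.1%. Immediate-early genes had a median of -1.96 with 26 of 30 below 0, and mitosis genes 0.67 with 30 of 30 above 0. Myoblast markers had a median of 2.45, with Myod1 at 5.69 and 111 CPM in replicates 1 and 2. The cholesterol genes differed from this, with a median of 0.09 and 9 of 24 below 0. Their level was -0.88 and -0.87 in the 2 libraries, both close to that of replicate 3 in SRF, SRF-ICA1L and SRF-RELA.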

How the data were processed

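The authors deposited raw gene counts in 1 table of 15062 genes and 17 libraries, in which every gene reached 10 counts in at least 3 libraries. Per the submitters' processing notes, FastQC 0.11.8, Trimmomatic 0.39, HISAT2, featureCounts and Subread 2.0.0 and the build GRCm38 were used. Their roles, the annotation and the strand setting are not given in the sources used here, so reads of overlapping, antisense or near-identical genes may be split. Libraries were grouped by title. All 1531 blank symbols were looked up by gene identifier, and 1519 were found.

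Counts of the 12 libraries were filtered with filterByExpr (125 genes left out), scaled by TMM and tested with edgeR 4.0.16 (limma 3.58.1, R 4.3.3), robust quasi-likelihood, with line and a replicate 3 term, and 7 residual degrees of freedom. A gene was called at a Benjamini-Hochberg adjusted p under 0.05 over all genes tested. The biological coefficient of variation was 28.5%. The steps were tested on simulated data. DESeq2 1.42.0, limma-voom and other filters were alternatives. Directions of lists were described by counts and medians.

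The members, the 40 gene lists and the tests were chosen with earlier results of these data known. Named genes were Fos, Egr1 and called immediate-early genes, the 12 largest differences each way among called genes beyond both other libraries in all 4 lines with at least 50 counts in the higher group, and up to 4 called members per list. Other list members are named as examples, and a few items are not reported here. Same-numbered libraries were checked for pairing by the correlations given at the opening, which come from the data and not from the labels.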

Additional observations from a re-analysis of the deposited data

Results flagged for a closer look

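In each of the following, the difference in 1 of the 4 lines lay far from the other 3 (a gap above Dixon's critical value for 4 samples), among 130 genes and 14 gene lists checked. Chance gives about 1 such gap in 20 groups, and 8 were found. Fosb differed by -8.52 in SRF-RELA, against -7.12 to -6.91 in the other lines. Rora, a clock receptor, differed by -0.50 in SRF and by -1.58 to -1.55 in the others. Ndrg1 differed by -1.03 in SRF and by -1.70 to -1.63 in the others, and Chac1, an ATF4 target, by -1.95 in SRF and by -1.17 to -1.07. Timp1, a protease inhibitor, differed by 0.85 in SRF-ICA1L and by 1.503 to 1.598 in the others, and Igfbp2, an IGF-binding protein, by 1.95 in SRF-ICA1L and by 1.11 to 1.21. Irs1 differed by 0.96 in pMSCV and by 0.57 to 0.61 in the others. The fatty acid list had a median of -0.30 in pMSCV and of -0.57 to -0.52 in the others.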

How the results depend on the processing

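With the replicate block (number as a term of 3 levels, a pairing read from the data and not from the labels) 2281 genes were called higher and 2235 lower, 111 were called in SRF-FOXO1, and 0 by line. DESeq2's Wald test called 1332 higher and 1709 lower, 202 in SRF-FOXO1 and 65 for its difference from the other lines, and its likelihood ratio test called 2 by line. Against replicate 1 alone 1966 were called higher and 1936 lower, and against replicate 2 alone 2359 and 2612. Leaving out 1 library or line gave 105 to 1002 genes called higher, 148 to 1193 lower, and 0 to 3 in SRF-FOXO1. Against replicate 1 alone, chosen after seeing the data, list medians moved to -1.34 (immediate-early), -0.16 (ERK feedback), 0.53 (myogenic regulators), 0.014 (DNA replication), -1.31 (cholesterol), -0.48 (glycolysis and hypoxia), -0.18 (NF-kappaB), -0.13 (clock), -0.66 (glucocorticoid and cyclic AMP), -0.25 (interferon), -0.18 (FOXO), 0.40 (collagen and matrix), 0.076 (ribosome biogenesis) and -0.19 (ribosomal proteins), and the Notch list reversed to 0.35. Against replicate 2 alone, likewise, they were 0.70 (DNA replication), 1.05 (mitosis), -0.65 (cholesterol), -0.33 (fatty acid), -0.23 (glycolysis and hypoxia), -0.74 (NF-kappaB), -0.76 (clock), -1.19 (interferon), -0.71 (FOXO) and 1.005 (ribosome biogenesis). The myogenic regulators reversed to -0.12, YAP and TEAD targets to -0.079, collagen and matrix to -0.055 and ribosomal proteins to 0.11. Leaving out 1 library or line gave medians of -0.0070 to 0.31 for myogenic regulators (reversed without SRF) and -0.010 to 0.62 for differentiation genes (reversed without SRF-ICA1L), and the Notch median reversed to 0.021 without SRF-RELA. The cause of these shifts was not tested. Depth was similar in all libraries, and genes at a few counts, such as Egr4 in pMSCV, allow no fold.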
